A study of Mus musculus with 12 samples.

Results

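The genes followed here encode RNA repressors of the germline: the Nanos genes Nanos1, Nanos2 and Nanos3, Dnd1 and the Pumilio gene Pum2. They were picked by name, as the genes whose symbols label 8 probes of the array. They are 5 of the 28867 genes, or unmatched probe names, into which the probes were grouped. Their mRNA levels were measured in whole E14.5 mouse gonads, the stage at which XX germ cells enter meiosis and XY germ cells leave the cell cycle, on 12 single-colour Agilent arrays, 3 for each of 4 groups. Each RNA sample came from 1 pair of gonads, and the study describes the 3 samples of a group as biological triplicates. All mice were of mixed background, and tamoxifen was given to the dams at E9.5 and E10.5.

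The Cre line, Stella-MerCreMer, is tamoxifen-inducible and recombines in germ cells, so the mutants kept Smad4 in the somatic cells of the gonad. The Smad4 (Stella) ovaries were Smad4flox/floxMerCreMer Stra8+/-, and the DKO ovaries, which lacked Stra8 as well, were Smad4flox/floxMerCreMer Stra8-/-. The control testes were all Smad4Flox/+ StellaMerCreMer Stra8+/-. The control ovaries were of mixed genotype: ovary 1 carried Smad4Flox/+ StellaMerCreMer Stra8+/-, ovary 2 Smad4Flox/+ Stra8+/- without the Cre, and ovary 3 Smad4Flox/Flox Stra8+/- without the Cre. Every animal outside the DKO group therefore carried 1 mutant Stra8 allele, and no group lacking Stra8 alone was among these arrays. The deletion of Smad4 depends on how many germ cells recombine, and these arrays do not measure that share.

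Nanos proteins carry a zinc finger domain and silence mRNAs by bringing them to the CCR4-NOT deadenylase, which shortens poly(A) tails. NANOS3 protects migrating primordial germ cells of both sexes, whereas NANOS2 is made in XY germ cells after they reach the testis, where it holds back meiosis and promotes the male programme. DND1 is an RNA-binding protein of germ cells that works with NANOS2 and whose loss leads to germ cell loss and testicular teratomas. PUM2 belongs to the Pumilio family, which binds a short motif in target mRNAs and partners Nanos proteins in flies, and Nanos1 is the family member best known outside the germline.

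The probes and the promoters show what was read and what was compared. Nanos2, Nanos3 and Dnd1 were each read by 1 probe of 60 bases, Nanos1 by 2 and Pum2 by 3. On mm9, the build of the array design, the Nanos2 probe lies on the plus strand of chr7:19573771-19573830 and the Nanos3 probe on the minus strand of chr8:86700210-86700269. The Nanos1 probes lie on the plus strand of chr19:60833650-60833709 and chr19:60835533-60835592, and the 3 Pum2 probes on the plus strand of chr12:8756736-8756795, chr12:8757405-8757464 and chr12:8759096-8759155. The longest run of bases that probes of different members share, on either strand, was 9. Probes were compared with each other and not with whole transcripts, so this does not tell whether a probe also reads another member's mRNA. The Nanos3 probe is shown because it reads coding sequence of the zinc finger region, the part of the gene most alike among Nanos paralogs; 48.3% of its bases are G or C.
Nanos3 probe: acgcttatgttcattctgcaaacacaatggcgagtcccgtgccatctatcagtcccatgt

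The upstream sequences of Nanos2 and Nanos3 are shown because both genes moved together in the DKO ovaries. They are the 250 bases before the annotated start in RefSeq's GRCm38.p6 annotation, at chr7:18987274-18987523 on the plus strand for Nanos2 and at chr8:84176553-84176802 on the minus strand for Nanos3. Both strands of each were searched for the SMAD core CAGAC, the GC-rich SMAD element GGCGCC, the nuclear receptor half-site AGGTCA and the TATA core TATAA, and capitals mark the matches.
Nanos2 upstream: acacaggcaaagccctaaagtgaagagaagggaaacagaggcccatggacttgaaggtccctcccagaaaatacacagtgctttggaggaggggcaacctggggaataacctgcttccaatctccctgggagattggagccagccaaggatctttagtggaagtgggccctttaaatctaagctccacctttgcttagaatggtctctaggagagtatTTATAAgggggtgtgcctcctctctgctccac
Nanos3 upstream: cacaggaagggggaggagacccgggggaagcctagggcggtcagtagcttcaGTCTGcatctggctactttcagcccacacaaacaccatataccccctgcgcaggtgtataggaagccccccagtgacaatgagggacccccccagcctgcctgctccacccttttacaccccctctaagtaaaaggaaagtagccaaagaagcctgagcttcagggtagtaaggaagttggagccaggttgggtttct

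The Nanos2 stretch held TATAA and its reverse complement in 1 overlapping run that begins at position -32 from the start, and none of the other motifs. TATAA was present in 22.8% of the 32851 promoters of the table searched over the same 250 bases. The Nanos3 stretch held 1 SMAD core, on the reverse strand at position -198, a motif found in 42.2% of all promoters. GGCGCC occurred at 3 positions upstream of Nanos1 and at 1 position in the third of the 3 Pum2 promoters, against 9.59% of all promoters, and AGGTCA, present in 14.0% of all promoters, was in none of the members' stretches. The table matched 4 of the 5 members. These matches are letters in a window and were not tied to binding.

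The levels below are log2 signals relative to the 75th percentile of the same array, which itself lay between 476 and 997 intensity units, so 0 is that percentile. The lowest signal well above background lay between -6.19 and -5.14, depending on the array. Between 59.3% and 71.0% of the spots of an array were well above background. All 5 members passed the filter on dim probes and were among 18657 genes tested with limma, with Benjamini-Hochberg adjustment over all of them; a call required both an adjusted p under 0.05 and a 1.5-fold or larger change. The arrays lay on 3 slides, with the control testes and control ovary 1 on the first, control ovaries 2 and 3 with DKO ovaries 1 and 2 on the second, and the Smad4 (Stella) ovaries with DKO ovary 3 on the third. No slide held both Smad4 (Stella) and control ovaries, or both DKO ovaries and testes. In these comparisons group and slide cannot be told apart. As a check of the labels, Stra8 ranged from 6.16 to 6.71 over the control ovaries, from 6.28 to 6.41 over the Smad4 (Stella) ovaries, from 5.28 to 5.61 over the DKO ovaries and from -2.98 to -2.32 over the control testes. The DKO level was 2.02-fold below that of control ovaries (limma adjusted p = 0.00271). Smad4 ranged from 1.96 to 2.42 over all 12 arrays with overlapping groups. The labels do not say where the deleted parts lie relative to these probes, so neither gene checks the genotypes fully.

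**Figure D1:**
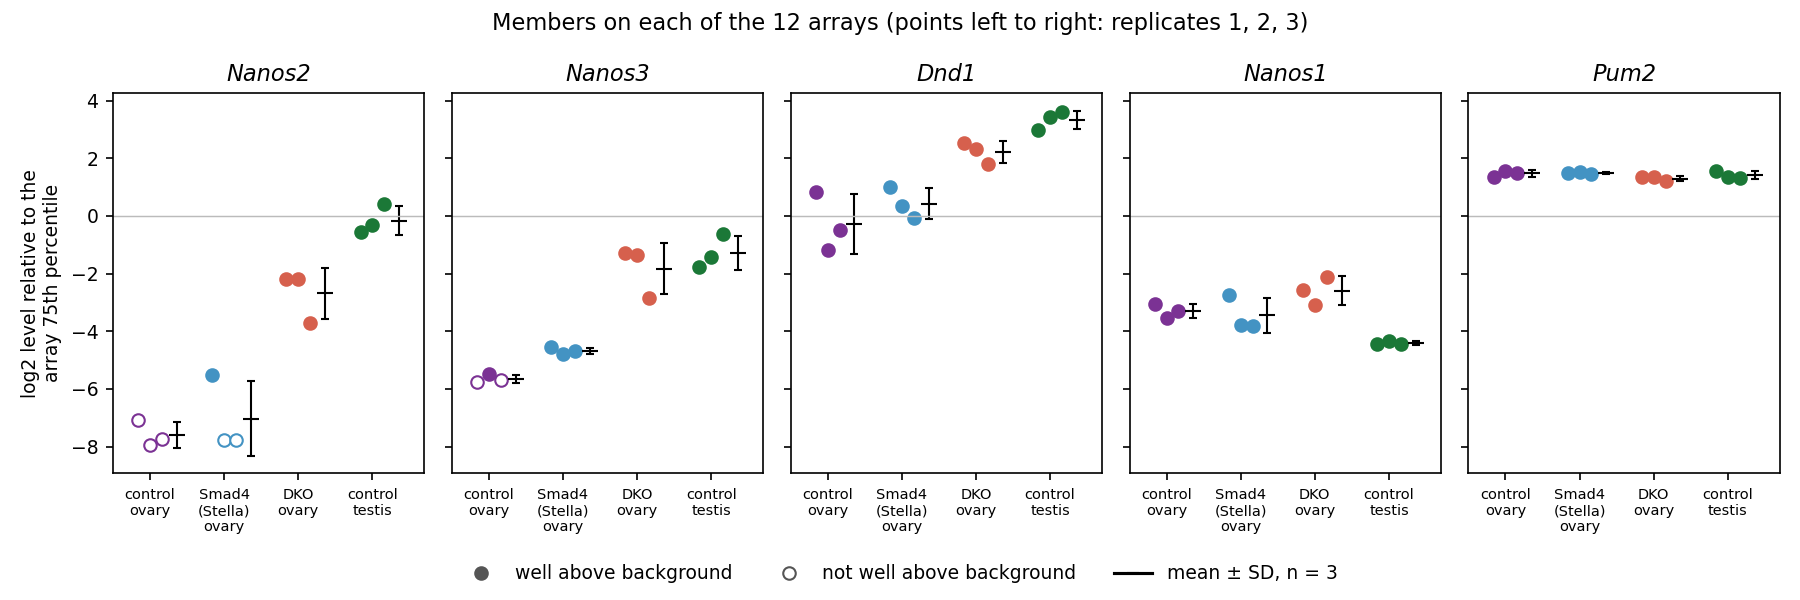
Level of each member on each array, as log2 signal relative to the array's 75th percentile, by group; filled points are arrays on which at least 1 probe of the gene was well above background, open points are arrays on which none was, and bars give mean ± SD of 3 arrays. The DKO ovaries sit above the control and Smad4 (Stella) ovaries for Nanos2, Nanos3 and Dnd1, while Pum2 stays between 1.20 and 1.58 on all arrays.

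Nanos2, the XY germ cell repressor, was high in the testes, at an intermediate level in the DKO ovaries and at or near background in the other ovaries. In the control testes its level was -0.55, -0.32 and 0.40 on arrays 1, 2 and 3. The DKO ovaries gave -2.18, -2.17 and -3.70. The Smad4 (Stella) ovaries gave -5.52, -7.78 and -7.78, and the probe was well above background on the first of these arrays alone. The control ovaries gave -7.08, -7.94 and -7.75, none of them well above background. All 3 DKO arrays lay above every Smad4 (Stella) and control ovary array and below every testis array, and DKO ovary 3 was the lowest of its group.

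Because the control ovaries carried no measurable Nanos2, the rise is given as a bound, the mean of the bright group over the mean of, per dim array, the higher of its lowest signal well above background and the probe's own signal. On that basis Nanos2 was at least 7.45-fold higher in the DKO ovaries (mean level -2.69 ± 0.88, SD, n = 3) than in the control ovaries (-7.59 ± 0.45, n = 3). The control testes (-0.16 ± 0.50, n = 3) were at least 43.0-fold above the control ovaries. The limma adjusted p was 0.000348 for the DKO ovaries and 5.6e-06 for the testes. Both come from the fit to the measured values, including those below background, and the bounds themselves were not tested. The probe passed the filter on dim probes only through the DKO ovaries and the testes, the groups where it was high. The filter and these p-values thus rest on the same groups. Without the filter the limma adjusted p was 0.000945 for the DKO ovaries and 1.61e-05 for the testes. In these whole gonads, fewer cells of a type and less RNA per cell cannot be told apart, here and in all comparisons that follow.

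The DKO ovaries exceeded the Smad4 (Stella) ovaries (-7.03 ± 1.30, n = 3) by 4.34 ± 0.62 (SE) on the log2 scale, or 20.3-fold (limma adjusted p = 0.00181), a fold that rests on a comparison group in which 1 of 3 arrays measured the gene. Against the testes they fell short by 5.77-fold (log2 difference -2.53 ± 0.62, SE; limma adjusted p = 0.00893), a call lost with normexp background correction (-1.48, adjusted p = 0.0601) and with the slide as a block (-1.26, adjusted p = 0.425). No fold is given for the Smad4 (Stella) against the control ovaries, both near background, where the adjusted p was 0.637. The order of the levels was thus testes, DKO ovaries, then the Smad4 (Stella) and control ovaries, and this last pair did not differ beyond its spread. The DKO arrays exceeded the control ovaries by 5.67 on slide 2, with 2 arrays of each group, and DKO ovary 3 exceeded the Smad4 (Stella) mean by 3.32 on slide 3. With the slide as a block the second difference did not pass the threshold (adjusted p = 0.0542), and with normexp background correction neither difference between DKO and other ovaries did (1.62, adjusted p = 0.0589 against the controls; 1.66, adjusted p = 0.11 against the Smad4 (Stella) ovaries).

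Nanos3, the primordial germ cell survival factor, rose in the DKO ovaries to a level that overlapped that of the testes. DKO arrays 1, 2 and 3 read -1.29, -1.34 and -2.85. Testes read -1.77, -1.42 and -0.62. The Smad4 (Stella) arrays read -4.56, -4.79 and -4.69, each well above background. Control ovaries read -5.75, -5.49 and -5.70, and the second of these was well above background. The Smad4 (Stella) arrays thus lay close together above the control ovaries, which were on other slides, and DKO ovary 3 was again the lowest of its group.

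Against the control ovaries (-5.64 ± 0.13, n = 3), Nanos3 was 14.1-fold higher in the DKO ovaries (-1.83 ± 0.89, n = 3; log2 difference 3.82 ± 0.39, SE; limma adjusted p = 0.000112), a fold that rests on control ovaries in which 1 of 3 arrays measured the gene well above background. With the same limit, the testes (-1.27 ± 0.59, n = 3) exceeded these ovaries 20.7-fold (log2 4.37, limma adjusted p = 9.87e-06). DKO ovaries and testes did not differ beyond their spread (-0.56, 95% interval -1.43 to 0.32, limma adjusted p = 0.301). The DKO ovaries also exceeded the Smad4 (Stella) ovaries (-4.68 ± 0.11, n = 3) by 7.23-fold (log2 2.85, limma adjusted p = 0.00155). The step from control to Smad4 (Stella) ovaries was 0.96 (95% interval 0.09 to 1.84) and, with a limma adjusted p of 0.22, did not pass the threshold although the arrays of these groups did not overlap. It was 0.097 with normexp and 2.45 with the slide as a block (limma adjusted p = 0.0936). Within slides the DKO difference was 4.28 over the control ovaries and 1.83 over the Smad4 (Stella) ovaries; the latter call was lost with normexp (1.73, adjusted p = 0.0502).

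Dnd1, the partner of NANOS2, was present in every group and followed the same order. The control testes gave 2.98, 3.42 and 3.60, and the DKO ovaries 2.54, 2.31 and 1.79. The Smad4 (Stella) ovaries gave 1.01, 0.35 and -0.07, and the control ovaries 0.83, -1.19 and -0.48. The control ovaries were the most spread group, and their first array, the one of testis-control genotype, overlapped the Smad4 (Stella) ovaries. No array of the control or Smad4 (Stella) ovaries reached the lowest DKO array, and no DKO array reached the lowest testis array.

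The DKO ovaries (2.21 ± 0.38, n = 3) carried 5.63-fold more Dnd1 than the control ovaries (-0.28 ± 1.03, n = 3; log2 2.49 ± 0.46, SE; limma adjusted p = 0.00312), and the testes (3.33 ± 0.32, n = 3) 12.2-fold more (log2 3.61, limma adjusted p = 0.000105). The DKO mean lay 69.1% of the log2 distance from the control ovaries to the testes. The difference to the testes, -1.12 (95% interval -2.14 to -0.10), did not pass after adjustment (limma adjusted p = 0.0805). It passed with only the groups compared in the fit (adjusted p = 0.0153) and relative to Ddx4 (-1.83), and turned to 0.76 with the slide as a block. Smad4 (Stella) ovaries (0.43 ± 0.54, n = 3) differed from the controls by 0.71 (95% interval -0.31 to 1.73, limma adjusted p = 0.407). With the slide as a block that difference was 1.90 (limma adjusted p = 0.203). The DKO ovaries were 3.45-fold above the Smad4 (Stella) ovaries (log2 1.79 ± 0.46, SE; limma adjusted p = 0.0305), a call that was lost without DKO ovary 1 (1.62, adjusted p = 0.0985), DKO ovary 2 (1.74, adjusted p = 0.08), Smad4 (Stella) ovary 2 (1.75, adjusted p = 0.106) or Smad4 (Stella) ovary 3 (1.54, adjusted p = 0.123), with the slide as a block (1.37, adjusted p = 0.115), with normexp (1.56, adjusted p = 0.106), with the deposited table (1.54, adjusted p = 0.0847) and without the filter (1.79, adjusted p = 0.0616).

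Nanos1 ran in another order, lowest in the testes and highest in the DKO ovaries. As the mean of its 2 probes, testes read -4.43, -4.32 and -4.45 and control ovaries -3.06, -3.53 and -3.31. The Smad4 (Stella) ovaries gave -2.74, -3.78 and -3.83 and the DKO ovaries -2.55, -3.09 and -2.12. The testes lay below all ovaries, whereas the ovary groups overlapped.

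The testes (-4.40 ± 0.07, n = 3) were 2.14-fold below the control ovaries (-3.30 ± 0.24, n = 3; log2 -1.10 ± 0.30, SE; limma adjusted p = 0.0123). The DKO ovaries (-2.59 ± 0.49, n = 3) were 3.51-fold above the testes (log2 1.81, limma adjusted p = 0.00105), a call lost with normexp (0.96, adjusted p = 0.236). Neither their difference to the control ovaries, 0.71 (95% interval 0.04 to 1.39, limma adjusted p = 0.124), nor that to the Smad4 (Stella) ovaries (-3.45 ± 0.61, n = 3), 0.86 (0.19 to 1.54, limma adjusted p = 0.0954), passed; without Smad4 (Stella) ovary 1 the latter was 1.22 and did (adjusted p = 0.0137). The Smad4 (Stella) ovaries differed from the controls by -0.15 (95% interval -0.82 to 0.52, limma adjusted p = 0.813). Both probes moved the same way, by 0.73 and 0.70 from control to DKO ovaries and by -0.93 and -1.27 from control ovaries to testes, although in the testes the first probe was well above background on 1 of 3 arrays. The lower level in testes was not called with normexp (-0.28, adjusted p = 0.836) or relative to Ddx4 (-0.53, adjusted p = 0.135).

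Pum2 was the flattest member. The control ovaries were at 1.35, 1.58 and 1.49, the Smad4 (Stella) ovaries at 1.48, 1.51 and 1.46, the DKO ovaries at 1.34, 1.35 and 1.20 and the control testes at 1.57, 1.36 and 1.30. The DKO arrays lay just under all control ovary arrays and also under all Smad4 (Stella) arrays, and the other pairs of groups overlapped.

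No Pum2 difference passed the threshold in any of the 5 comparisons. The DKO ovaries (1.29 ± 0.08, n = 3) differed from the control ovaries (1.47 ± 0.11, n = 3) by -0.18 (95% interval -0.40 to 0.05, limma adjusted p = 0.245) and from the Smad4 (Stella) ovaries (1.48 ± 0.03, n = 3) by -0.19 (-0.41 to 0.03, limma adjusted p = 0.27). Testes (1.41 ± 0.14, n = 3) and control ovaries differed by -0.06 (-0.29 to 0.16, limma adjusted p = 0.645). The 3 probes were not alike: from control to DKO ovaries the middle probe moved by -0.48 and the outer probes by -0.01 and -0.05, and the middle probe's lowest value, -0.19, came from DKO ovary 3, where the other DKO arrays gave 0.60 and 0.59.

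**Figure D2:**
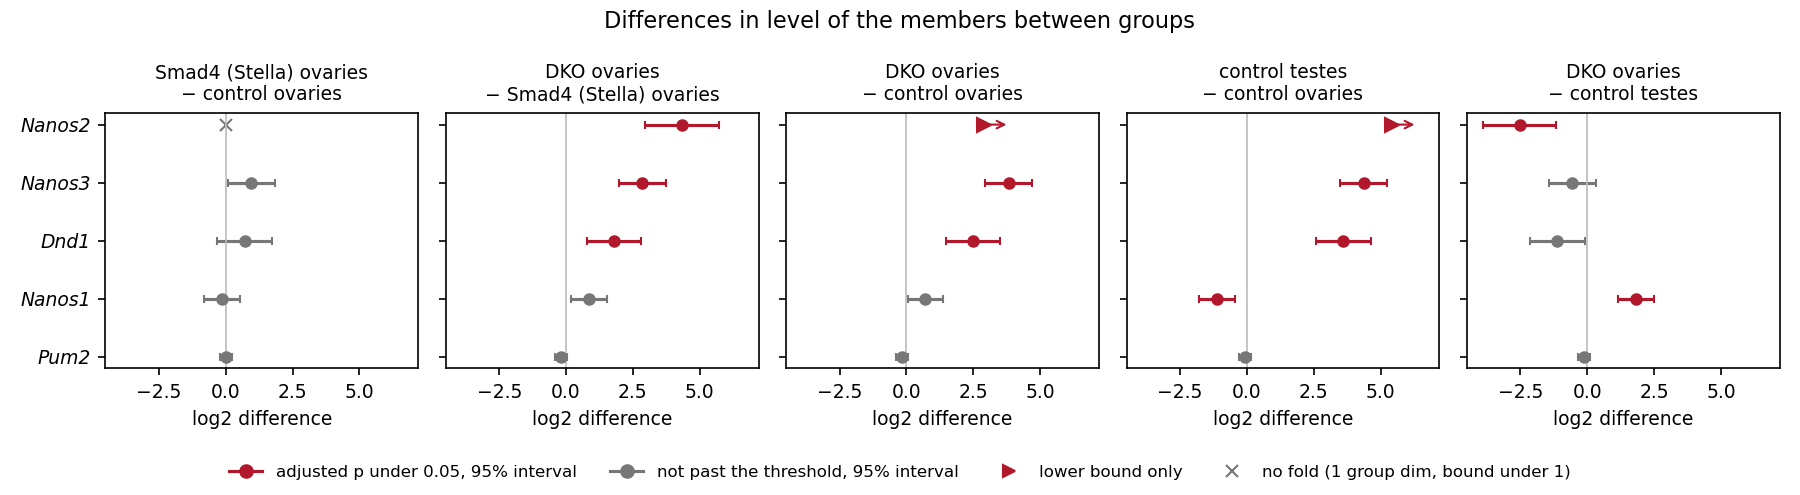
Difference in log2 level of each member in the 5 comparisons; circles are limma estimates with 95% intervals, red where called, triangles with arrows are lower bounds for Nanos2 against control ovaries in which it was not measurable, and the cross marks a comparison given no fold. Nanos2, Nanos3 and Dnd1 lie right of 0 wherever DKO ovaries or testes were set against another ovary group.

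Set side by side, 3 of 5 members were called in the DKO against the control ovaries, all higher, where 14.6% of all genes were called, 6.71% of all genes being higher. None of the 5 was called in the Smad4 (Stella) against the control ovaries with limma, where 0.279% of all genes were called (0.134% higher and 0.145% lower); before adjustment Nanos3 alone passed there, in limma as in the methods' t-test. The testes against the control ovaries gave 4 of 5, with 3 higher and 1 lower, against 34% of all genes (17.2% higher and 16.7% lower). DKO against Smad4 (Stella) ovaries gave 3 of 5, all higher, against 8.41% (4.38% higher), and DKO ovaries against testes gave 2 of 5, Nanos1 higher and Nanos2 lower, against 25.8% (12.7% higher and 13.1% lower). Arrays of the compared groups did not overlap for 4, 1, 4, 4 and 3 members in these comparisons, in the order given, while 32.9%, 28.1%, 58.4%, 31.2% and 50.6% of all genes had groups that did not overlap. The comparisons share arrays, the control ovaries serving in 3 of them, so their results are not independent. Nanos2 is counted among the called members although it passed the filter only through the groups in which it was high. With 3 arrays against 3, an exact two-sided permutation test of a single gene cannot give a p below 0.1.

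The spread within the groups had a shape of its own. Within the DKO group, array 3 was the lowest for Nanos2, Nanos3, Dnd1 and Pum2 and the highest for Nanos1. Testis 3 was the highest of its group for Nanos2, Nanos3 and Dnd1, and Smad4 (Stella) ovary 1 the highest of its group for Nanos2, Nanos3, Dnd1 and Nanos1. DKO ovary 3 was also the DKO array on slide 3 and had the most outlier spots, 198 against 46 to 110 on the other arrays; the part of slide and spot quality in these values was not tested.

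Germ cell and somatic markers were read beside the members. Ddx4, the germ cell helicase that the study used as reference for its RT-qPCR, read 5.33, 4.88 and 4.97 on the control ovary arrays against 5.48, 5.04 and 5.09 on the DKO arrays (log2 difference 0.14, limma adjusted p = 0.561). Smad4 (Stella) ovaries read 4.88, 4.89 and 4.66, and testes 4.36, 4.51 and 4.60, so that the DKO ovaries exceeded the testes by 0.71 (limma adjusted p = 0.0048). Measured relative to Ddx4 instead of the 75th percentile, an alternative chosen after seeing the data, the DKO ovaries exceeded the control ovaries by a fitted 4.76 for Nanos2, 3.67 for Nanos3 and 2.35 for Dnd1 (adjusted p = 0.000142, 6.06e-05 and 0.000894). Against the testes, all 5 members were called on that scale, with Nanos3 at -1.27 (adjusted p = 0.0108), Dnd1 at -1.83 (adjusted p = 0.00117) and Pum2 at -0.83 (adjusted p = 0.00563). The median of all genes was itself at -0.73 there, and of 18657 genes 677 were called higher and 10358 lower. Pum2 lay close to that median. The same shift lies in the values of Nanos3 and Dnd1, which were not called against the testes relative to the 75th percentile.

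The summed level of 11 germ cell markers of both gonads, in multiples of the 75th percentile, ranged from 56.0 to 85.1 over control ovaries, 57.3 to 72.8 over Smad4 (Stella) ovaries, 90.4 to 119 over DKO ovaries and 86.0 to 107 over testes. Its part in the members' differences was not tested. All 11 were well above background on every array; Gcna was not among the named probes. In the DKO against the control ovaries 5 of the 11 were higher, among them Dppa3 (Stella itself, 5.02-fold), Pou5f1 (a pluripotency factor of primordial germ cells, log2 2.32) and Tdrd1 (a piRNA pathway Tudor protein, 2.61-fold), and Rnf17 and Stk31 were lower. For that comparison, 6.71% of all genes were called higher and 14.6% in either direction. Sertoli cell markers summed to 41.9 to 44.9 in the testes but 1.13 to 1.61 in the DKO ovaries and 1.16 to 1.84 in the control ovaries, with 5 or 6 of the 6 well above background on each of those ovary arrays and 0 of 6 called between them. Pregranulosa markers were at 70.9 to 84.8 in the DKO and 66.9 to 79.7 in the control ovaries, against 13.0 to 16.0 in the testes, and none of 6 was called between DKO and control ovaries. Leydig markers summed to 63.7 to 72.4 in the testes and to 1.86 to 3.31 over all ovaries. Thus Nanos2 was measurable in DKO ovaries whose Sertoli and Leydig marker sums stayed within or near those of the control ovaries. Erythroid markers ran lower in the DKO ovaries (11.3 to 16.4) than in the control ovaries (18.0 to 24.3, 4 genes summed), and 2 of 5 were called lower; their part in the members' differences was not tested. Endothelial sums (11.9 to 13.7 in the DKO ovaries, 11.1 to 14.0 in the controls) overlapped. Macrophage markers, all 5 well above background on every array, summed to 2.49 to 4.99 in the DKO ovaries, 2.07 to 2.66 in the control ovaries, 1.95 to 2.39 in the Smad4 (Stella) ovaries and 1.62 to 1.77 in the testes, with Cd68 called 1.65-fold higher in the DKO than in the control ovaries. Their part in the members' differences was not tested. Mesonephric markers summed to between 0.318 and 1.46 over all arrays.

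Nanos proteins act through the deadenylation and decapping machinery, which was read from lists of its own. Of 17 deadenylase subunits and adaptors, all tested, DKO ovaries had 1 higher and 1 lower than control ovaries, beside 14.6% of all genes called in either direction: Cnot2, a core scaffold subunit of CCR4-NOT, rose 1.59-fold (limma adjusted p = 0.00102) and Cnot6l, a catalytic subunit, was 1.71-fold lower (limma adjusted p = 0.000247). The list's median difference was 0.04, beside 0.00 over all genes. Cnot1, the large scaffold that Nanos proteins contact, differed by -0.07 (limma adjusted p = 0.634). Of 12 decapping and decay genes 1 was higher, Dcp1b, a decapping cofactor (1.59-fold), and 2 were lower, Lsm14b, a P-body protein (1.62-fold), and Eif4enif1, the eIF4E-binding repressor 4E-T (1.61-fold), against the same 14.6% of all genes; the list's median was -0.05. Dcp1b was higher in the Smad4 (Stella) ovaries too, by 1.56-fold (limma adjusted p = 0.0477). This call was lost with normexp, without the filter, with only the groups compared, with the replicate block and with the methods' t-test after Benjamini-Hochberg. It was also lost without control ovary 1, control ovary 2 or Smad4 (Stella) ovary 3. No deadenylation gene was called in the Smad4 (Stella) against the control ovaries. In the testes against the control ovaries 2 deadenylation genes were lower, Tob1 (an adaptor, log2 -0.79) and Cnot1 (-0.70), and the decapping list gave 1 higher and 2 lower, with Eif4enif1 2.67-fold down. Among all genes 34% were called in either direction there.

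Among other RNA-binding proteins of germ cells most calls in the DKO ovaries against the other ovaries were downward. Of 21, DKO ovaries had 1 higher and 5 lower than control ovaries, beside 14.6% of all genes called in either direction. Lin28a, a repressor of let-7 processing, was 3.32-fold higher (limma adjusted p = 0.00899). The lower ones were led by partners in meiotic entry, Meioc (log2 -3.82, limma adjusted p = 0.000103) and Ythdc2 (log2 -1.37, limma adjusted p = 2.69e-05), and by Boll, a Dazl relative (log2 -2.09, limma adjusted p = 1.78e-05). Pum3 differed by 0.07 (limma adjusted p = 0.711). None of the 21 was called in the Smad4 (Stella) against the control ovaries. Against the Smad4 (Stella) ovaries the DKO ovaries gave the same direction for Lin28a (2.86-fold higher), Meioc (log2 -3.19) and Boll (log2 -1.46). Against the testes 12 of the 21 were higher in the DKO ovaries and 0 lower, beside 12.7% of all genes called higher. In the testes against the control ovaries 10 were lower and 0 higher, beside 16.7% of all genes called lower.

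Genes of fetal male germ cells, the cells in which Nanos2 is normally made, were read from a list of their own. Of 12 listed, 10 were on the array; Piwil4 and Zbtb16 were not among its named probes. In the DKO ovaries 6 of 10 were higher than in the control ovaries and 0 lower, with a median difference of 1.93, beside 6.71% of all genes called higher. Among them were Egr4, a transcription factor, with 101-fold, and Nodal, a TGF-beta ligand, with 6.08-fold. Lefty1, a Nodal antagonist, had a fitted 26.6-fold, but was well above background on 1 of 3 control ovary arrays. Dnmt3l, the cofactor of de novo DNA methylation in prospermatogonia, differed by 1.36 between DKO and control ovaries (limma adjusted p = 0.135) and was 45.4-fold lower in the DKO ovaries than in testes (limma adjusted p = 6.15e-05). Lefty2, a second Nodal antagonist, was 40.6-fold lower than in testes (limma adjusted p = 9.81e-06) and well above background on 1 of 3 DKO arrays. In the Smad4 (Stella) ovaries Egr4 alone was called, 9.49-fold above the controls (limma adjusted p = 0.0205), and this call was lost under the alternatives named above for Dcp1b, left-out arrays included. With the deposited table, the brightest probe, the slide block, the 2-fold threshold or Ddx4, only 1 gene of the 6 lists was called in this comparison. The same held with any other array of these groups left out. Meiosis genes went the other way. Of 11 listed 10 were tested, and 9 were lower and 0 higher in the DKO than in the control ovaries, with a median of -1.81. Beside them, 14.6% of all genes were called in either direction. The lower genes were led by Dmc1, the meiotic recombinase (log2 -3.88), Mei1 (log2 -3.62) and Spo11, which makes meiotic breaks (log2 -2.29). The 9 included Stra8 itself, which the DKO ovaries lack by genotype. No group lacked Stra8 alone, and the part of Stra8 loss in this fall was not tested. Compared with the testes the same 10 were all higher in the DKO ovaries, by a median of 2.27, beside 12.7% of all genes. The largest of these differences was that of Stra8 itself (264-fold). Nanos2 mRNA and meiotic transcripts were thus present in the same gonads. Whether they were in the same cells cannot be told from whole gonads.

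**Figure D3:**
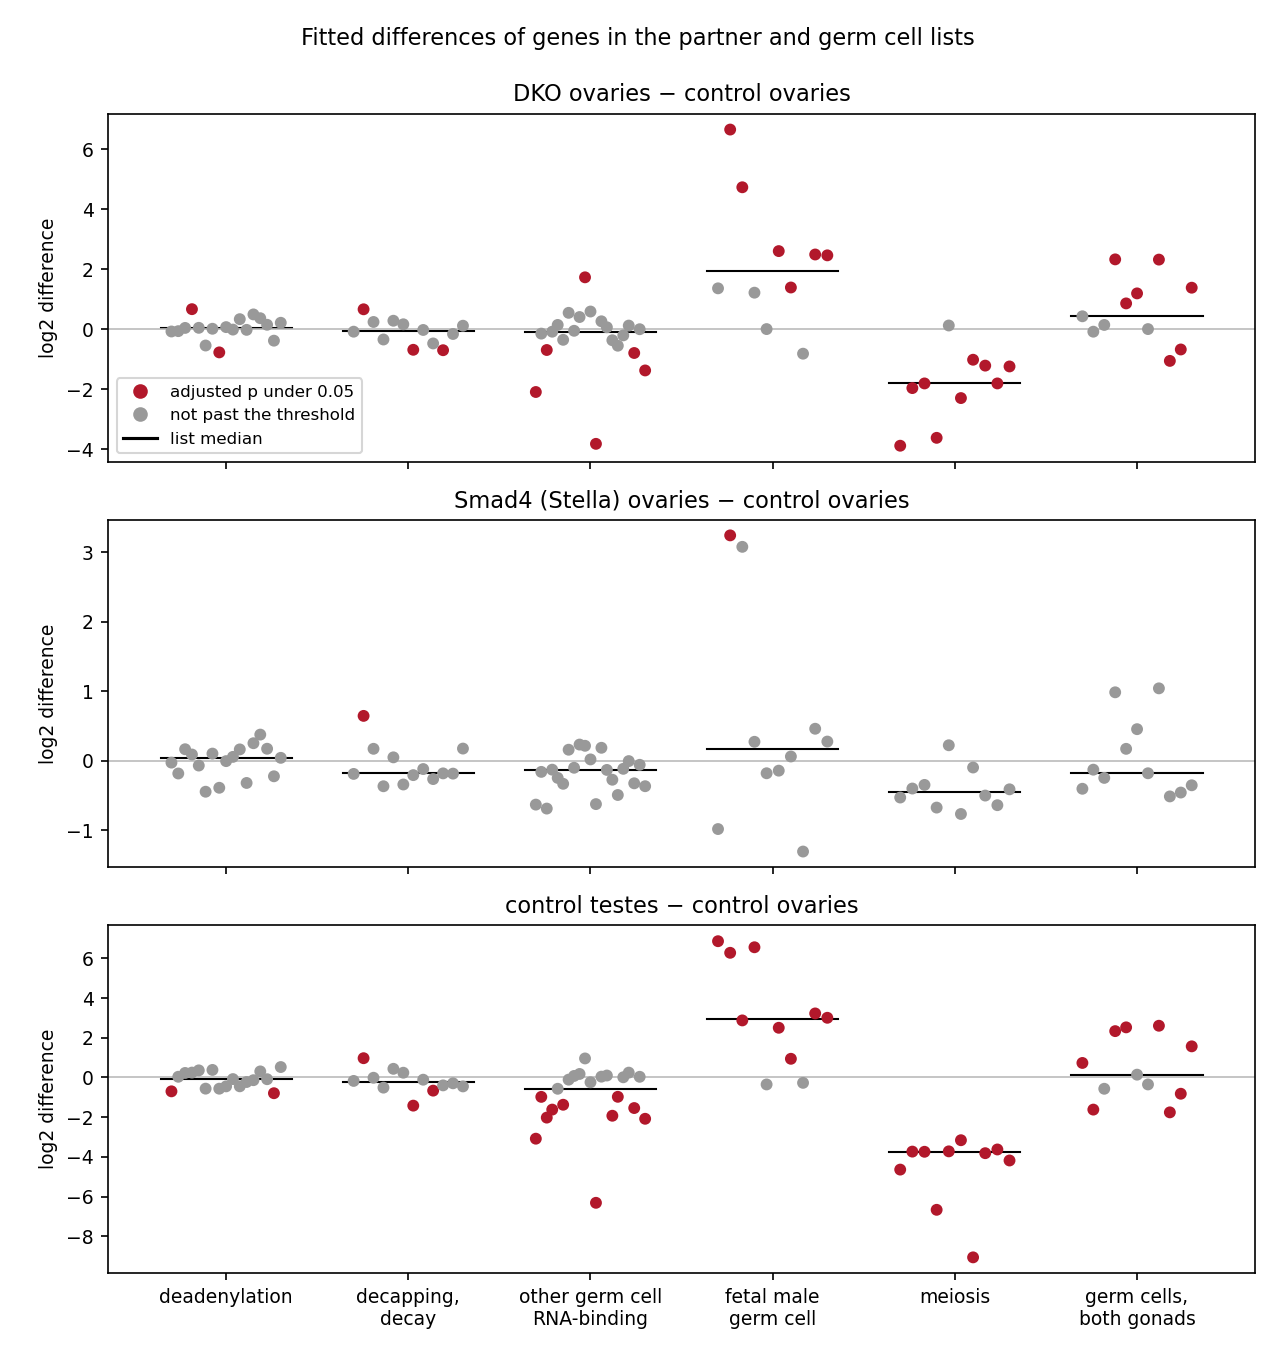
Fitted log2 differences of the tested genes of 6 lists in 3 comparisons; red points were called, grey points were not, and black lines are list medians. The medians of the deadenylation and decapping lists lie between -0.23 and 0.04 in the 3 panels, while male germ cell genes lie mostly above 0 and meiosis genes mostly below 0 in the DKO ovaries and the testes; genes at or near background are drawn at their fitted values, which are not bounds.

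Genes with the pattern most like each member were found by Pearson's r over the 12 arrays among the genes that passed the filter. The 12 arrays form 4 groups, so a high r says mainly that the group means line up. The closest to Nanos2 were Dock5 (r = 0.996), Rimbp2 (0.992), Mlana (0.990), Wdr95 (0.990) and Tdrd5 (0.987), a Tudor protein of the piRNA pathway. Tdrd5 had mean levels of -0.38 in the testes, -1.11 in the DKO, -3.14 in the Smad4 (Stella) and -3.60 in the control ovaries, a narrower range than that of Nanos2. Closest to Nanos3 were Rsph9 (0.993), 3830417A13Rik (0.987), Spint1 (0.986), Rpl39l (0.986) and Acad12 (0.986). Rsph9, a radial spoke protein of motile cilia, ran from 2.27 in the testes through 1.94 in the DKO and 0.98 in the Smad4 (Stella) ovaries to 0.55 in the control ovaries.

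For Dnd1 the closest were Mphosph6 (0.992), Dppa4 (0.991), Mbl2 (0.987), the probe named NAP057010-1 (0.985) and again Tdrd5 (0.983). Dppa4, a chromatin-linked gene of pluripotent and early germ cells, gave 3.57, 2.09, 0.10 and -1.28 in testes, DKO, Smad4 (Stella) and control ovaries. Nanos1 had weaker neighbours, among them Sestd1 (0.946), Dll1 (0.943), Egln1 (0.938) and BB183719 (0.938). Dll1, a Notch ligand, was likewise highest in the DKO ovaries (0.47) and lowest in the testes (-1.94). For Pum2 the best r was 0.896, with Megf6, followed by Zbtb5 (0.877), Pgbd1 (0.872), 1110059G10Rik (0.871) and Efnb2 (0.870).

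**Figure D4:**
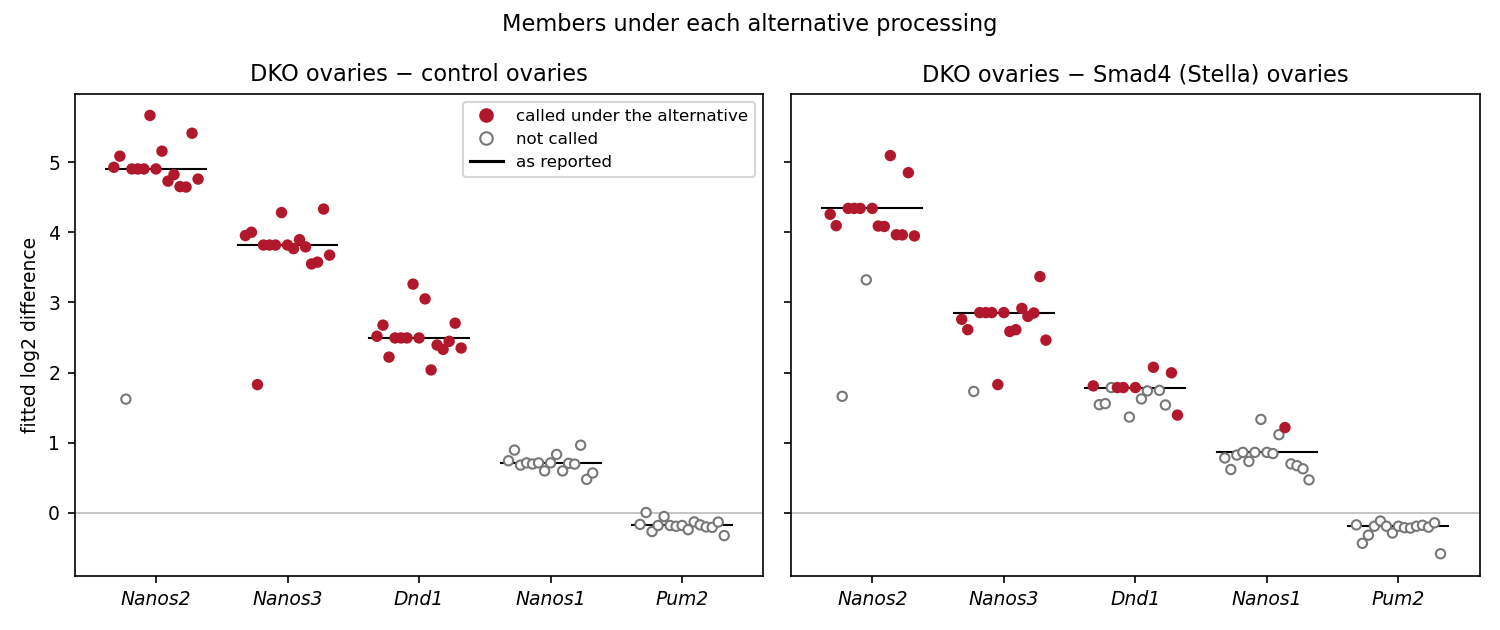
Fitted log2 difference of each member under every alternative processing, including each array left out in turn, for DKO against control ovaries and DKO against Smad4 (Stella) ovaries; red points are called, open points are not, and black lines give the reported value. The Nanos2 values against control ovaries are fitted on arrays where it was not measurable and are not bounds; the low open Nanos2 point in each panel is normexp background correction, and Dnd1 against the Smad4 (Stella) ovaries was called under 7 of 15 alternatives.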

How the data were processed

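Gene expression in 12 gonad samples was read on single-colour Agilent arrays of 45018 spots. The intensity values are those deposited by the authors, as written by Agilent Feature Extraction 11.0.1.1 (per the file headers), which subtracts background; the authors' value table holds the same intensity values to 3 digits, neither scaled between arrays nor logged, with column medians of 38.9 to 91.8.

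Control and outlier-flagged spots were left out. Signals were divided by the array's 75th percentile and log2 transformed, spots of 1 probe were averaged, and a probe was kept (27299 of 41174) if all 3 arrays of any group read it well above background; kept probes were averaged by gene. Probes took the reference symbol matched by accession, current symbol or unique synonym, as 31793 of them did, and the others kept the name on the array. limma 3.58.1 (R 4.3.3) was fitted to all 12 arrays with 4 group means, and p-values were Benjamini-Hochberg adjusted over 18657 genes. The fit was tested on simulated data. Groups came from the labels. The limma p-values measure the spread between pairs of gonads within groups, pooled over the 12 arrays. That spread includes the mixed genotypes of the control ovaries and, where a group lay on more than 1 slide, differences between slides.

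The members, gene lists and comparisons were chosen with earlier results of these data known. Named genes are the members, up to 3 called genes in each direction per list and comparison, and the 5 genes most like each member, of which some are not reported here; Ddx4, Cnot1, Dnmt3l, Lefty2, Pum3 and the deleted genes were named for their role. Prdm9, Pax2 and Wnt9b did not pass the filter, and Insl3 was not among the named probes. The alternatives tried were other scalings (quantile, deposited table, relative to Ddx4), normexp with offset 50, no filter, the brightest probe, fewer groups in the fit, a block for slide or replicate number, the methods' t-test, a 2-fold threshold and each array left out. Same-numbered arrays of different groups deviated together in 2 of 18 pairs (r over 0.1; range -0.18 to 0.15), so the numbers were not taken to pair samples.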

Additional observations from a re-analysis of the deposited data

How the results depend on the processing

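Over the alternatives, the 3 members called in the DKO against the control ovaries stayed 3 under all but normexp, which left Nanos3 and Dnd1, and the methods' t-test after Benjamini-Hochberg, which left Nanos2 and Nanos3. The 4 called in the testes stayed 4 except with normexp and relative to Ddx4, which left 3. In the DKO against the Smad4 (Stella) ovaries 3 called members became 0 with normexp, 2 with the deposited table and without the filter, 1 with the slide as a block and 0 with the methods' t-test after Benjamini-Hochberg; in the DKO ovaries against the testes 2 became 0 with normexp, 1 with the slide as a block, 1 with that t-test and 5 relative to Ddx4. Relative to Ddx4, 677 of all genes were called higher and 10358 lower in the DKO ovaries against the testes. In the Smad4 (Stella) against the control ovaries 0 became 1 with the methods' t-test without adjustment. Leaving out an array gave 2 to 4 in the DKO against the Smad4 (Stella) ovaries and no other change. Of the 78 tested genes of 6 lists, 33 were called in the DKO against the control ovaries, and 20 with the deposited table and 19 with the adjusted t-test. The 20 called against the Smad4 (Stella) ovaries became 11 with normexp and 2 with the adjusted t-test, and the 31 against the testes became 18 with the deposited table, 17 with normexp and 17 at the 2-fold threshold. The 2 called in the Smad4 (Stella) against the control ovaries became 0 with normexp, without the filter, with only the groups compared, with the replicate block and with the adjusted t-test, 1 with the deposited table, the brightest probe, the slide block, the 2-fold threshold and Ddx4, and 9 with the unadjusted t-test; leaving out an array gave 0 to 1.

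Differences that turned sign were uncalled ones. In the Smad4 (Stella) against the control ovaries, Nanos1 went to 0.28 with the deposited table and 0.098 relative to Ddx4, and Nanos2 to -0.040 with normexp. With an array left out, the same comparison gave -0.50 to 0.040 for Nanos1 (above 0 without Smad4 (Stella) replicate 2 or 3), -0.19 to 0.94 for Nanos2 (below 0 without Smad4 (Stella) replicate 1) and -0.049 to 0.062 for Pum2 (below 0 without control ovary replicate 1 or Smad4 (Stella) replicate 2). Pum2 also went to 0.0051 with the deposited table in the DKO against the control ovaries, to 0.0062, 0.057 and 0.51 in the testes with the deposited table, the slide block and Ddx4, and to 0.0093 with the brightest probe in the DKO ovaries against the testes, where Dnd1 went to 0.76 with the slide block. In that comparison Nanos2 lost its call with normexp (-1.48) and with the slide block (-1.26), and Dnd1 was called with only the groups compared (adjusted p = 0.0153). The cause of these changes was not tested. The replicate block, which rests on numbers that do not pair the samples, kept 3, 0, 4, 3 and 2 called members and moved the adjusted p of Nanos2 in the DKO against the control ovaries to 0.000901. The deposited table and normexp moved the median of all genes in that comparison to 0.19 and 0.26, and its calls over all genes, 1251 higher and 1482 lower as reported, to 547 and 438 and to 442 and 459; relative to Ddx4 they were 710 and 1684, with the adjusted t-test 354 and 725, and at the 2-fold threshold 600 and 746.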
